A study of Mus musculus with 2 samples.

Results

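The 22 genes described here are the rows of the deposited expression table whose symbols begin with Zscan4, Tcstv, Usp17l or Tdpoz, out of 51826 listed genes. They are 9 Zscan4 genes, 2 Tcstv genes, 6 Usp17l genes and 5 Tdpoz genes. The study compared mouse embryonic stem (ES) cells carrying a T29I mutation with wild-type (WT) cells, with 1 total RNA library of each. Both libraries carry the source name v6.5, a line of mouse ES cells, and the same strain label, NBA1-19349. The series title names PRSS1, a trypsinogen gene, as the mutated gene, and the labels give no further treatment, time or allele. The sources used here do not say how many clones or cultures stand behind each library. With 1 library a group no difference below has a replicate check, and genotype, clone, culture and library preparation cannot be told apart.

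Zscan4 and the other families belong to the genes that the mouse embryo switches on when it starts its own transcription, at the 2-cell stage. In ES cell cultures a small and changing share of cells enters a state that resembles that stage and expresses these genes, while most cells have little or none. Zscan4 proteins carry a SCAN domain and zinc fingers, and are known for keeping telomeres long and the genome stable in ES cells. The homeodomain factor Dux, listed here as Duxf3, activates many genes of the state. In RNA from whole cultures, fewer cells in the state and less of the RNA per cell cannot be told apart.

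All 4 families had a lower summed level in the T29I library. The unit is TPM (transcripts per 1000000, which are reads scaled by gene length and to the same sum in each library). Multiplying TPM by gene length gave a whole number of reads for all 34 member values above 0, within 0.05 of a read. The length was that of the merged exons, except for Tcstv3. For Tcstv3 a transcript length of 510 bases was picked because it gave whole reads. Depth estimated in this way was 15281839 reads in the T29I library and 16909918 in the WT library. The 9 Zscan4 genes summed to 3.07 TPM from 43 reads in the T29I library, against 92.1 TPM from 1005 reads in the WT library. The 6 Usp17l genes summed to 1.20 TPM from 17 reads in the T29I library, against 14.8 TPM from 160 reads in the WT library. The 2 Tcstv genes summed to 0.622 TPM from 4 reads in the T29I library, against 4.06 TPM from 19 reads in the WT library. The 5 Tdpoz genes summed to 0.0643 TPM from 1 read in the T29I library, against 1.72 TPM from 11 reads in the WT library. Zscan4 thus made up most of the signal of the 4 families in both libraries.

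Scaled to 1000000 estimated reads of a library, Zscan4 had 2.81 reads in the T29I library (95% exact Poisson interval 2.04 to 3.79) and 59.4 in the WT library (55.8 to 63.2). WT was 21.1-fold higher (exact conditional 95% interval 15.6 to 29.4). Usp17l had 1.11 such reads in the T29I library (0.648 to 1.78) and 9.46 in the WT library (8.05 to 11.05), 8.51-fold higher in WT (5.15 to 14.96). For Tcstv the WT library was 4.29-fold higher (1.43 to 17.4) and for Tdpoz 9.94-fold higher (1.44 to 428). These folds are of summed reads, and for Tcstv and Tdpoz they rest on 4 reads and 1 read in the T29I library. All these intervals cover counting error only, and reads without molecular identifiers need not be independent molecules.

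In the T29I library 14 of the 22 members were above 0, against 20 in the WT library. The 14 were also above 0 in the WT library, another 6 were above 0 in the WT library alone, and Usp17le-ps and Tdpoz5 were at 0 in both. Of all listed genes, 34.2% were above 0 in the T29I library and 37.3% in the WT library. Every one of the 20 detected members had the lower deposited TPM in the T29I library. Relative to the median shift of the table, described next, the log2 ratios of Usp17ld, Tdpoz1, Tdpoz2, Tdpoz3 and Tdpoz4 turned to between 0.14 and 0.77. That turn was fixed in advance, because 1 TPM was added to each value before the ratio. WT levels of 0.164 to 0.692 TPM then keep the ratio above the shift even with 0 reads in the T29I library. With 0.1 TPM added instead, the ratios as deposited ran from -2.99 for Tdpoz4 to -0.68 for Tdpoz1. After an adjustment for length and GC content, also described next, the ratios of Usp17ld, Tdpoz1 and Tdpoz2 turned to between 0.03 and 1.03, although Tdpoz2 had 0 reads in the T29I library. Over all listed genes, 14520 were lower in the T29I library and 6075 were higher, whatever the size. Only Zscan4-ps2 reached 1 TPM in the T29I library, against 15 members in the WT library. Over all 51826 genes 11590 reached it in the T29I library and 13174 in the WT library.

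**Figure D1:**
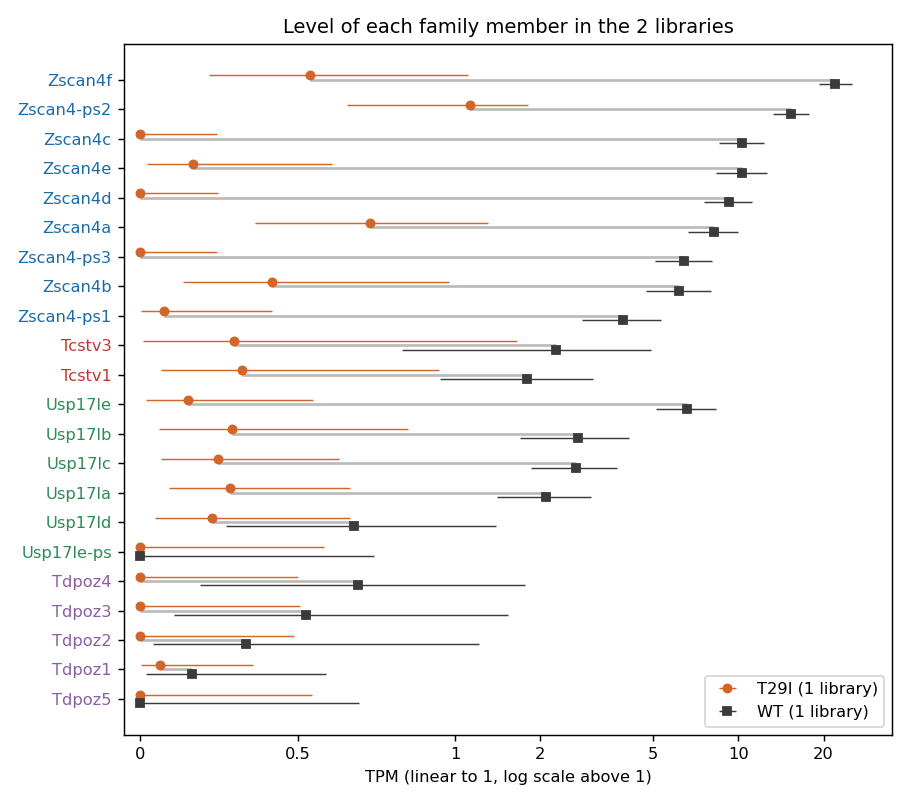
TPM of each of the 22 members in the T29I library (circles) and the WT library (squares), on an axis that is linear to 1 TPM and logarithmic above; bars are 95% exact Poisson intervals of the read counts and label colours mark the families. The Zscan4 genes lie between 0 and 1.13 TPM in the T29I library and between 3.92 and 22.03 TPM in the WT library.

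The whole table shifted in the same direction, which sets the background for these counts. TPM has the same sum in each library, so the shift describes shares of a library and not absolute amounts of RNA. A gene was called by size alone, as at least 2-fold lower or higher on the log2(TPM + 1) scale, if its 2 libraries averaged 1 TPM or more. Of 12943 such genes 45.7% were called lower and 9.97% higher in the T29I library. The filter left 15 of the 22 members, and all 15 were called lower, with a median log2 ratio of -2.41 against -0.84 over all genes. However, 14 of those 15 reached a mean of 1 TPM through the WT library alone, so they could hardly have been called in the other direction, and the count carries no support of its own. Without a filter 15 of 22 members were called lower, against 12.1% of all 51826 genes (2.64% were called higher), most of which were at 0 in both libraries. With a pseudocount of 0.1 all 15 were again called lower, against 49.2% of all genes lower and 11.6% higher. With a floor of 5 TPM on the mean 4 members were left, all called lower, against 47.1% of all genes lower and 9.63% higher. No member was above 1.13 TPM in the T29I library, so these 4 reached the floor through the WT library alone. Their count too carries no support.

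Long and GC-poor transcripts were lower in the T29I library across the table, and the Zscan4 transcripts are GC-poor. The longest annotated transcripts of the members run from 779 to 2656 bases. The 3217 protein-coding genes of that length and a mean of 5 TPM or more had a median log2 ratio of -0.04, and 23.6% of them were at least 2-fold lower. In the narrower range of the Zscan4 transcripts, GC content included, the background was quite different. In the 70 such genes there (42.2% to 44.4% GC) the median was -1.48, and 65.7% were at least 2-fold lower. The 9 Zscan4 genes, at -2.19 to -3.90, were all below that median. Only 4 of them averaged 5 TPM or more, as the 70 genes did. All but Zscan4-ps2 reached a mean of 1 TPM through the WT library alone, and the copies share reads. The comparison with that median therefore carries no support. A trend of the log2 ratio on transcript length and GC content, fitted to protein-coding genes that averaged 5 TPM or more, was then subtracted from the ratio of every gene. Of the 15 members 11 were at least 2-fold lower after it, against 15.5% of all genes (17.6% were higher), with a median of -1.36 against 0.04. The members that no longer passed were Tcstv1, Tcstv3, Usp17la and Usp17lc. Relative to the median shift, -0.90 over the 9375 genes that averaged 5 TPM or more, 10 of the 15 were at least 2-fold lower, against 22.2% of all genes lower and 26.0% higher. Both counts are over the same 15 members, of which 14 passed the filter through the WT library alone, so they too carry no support.

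**Figure D2:**
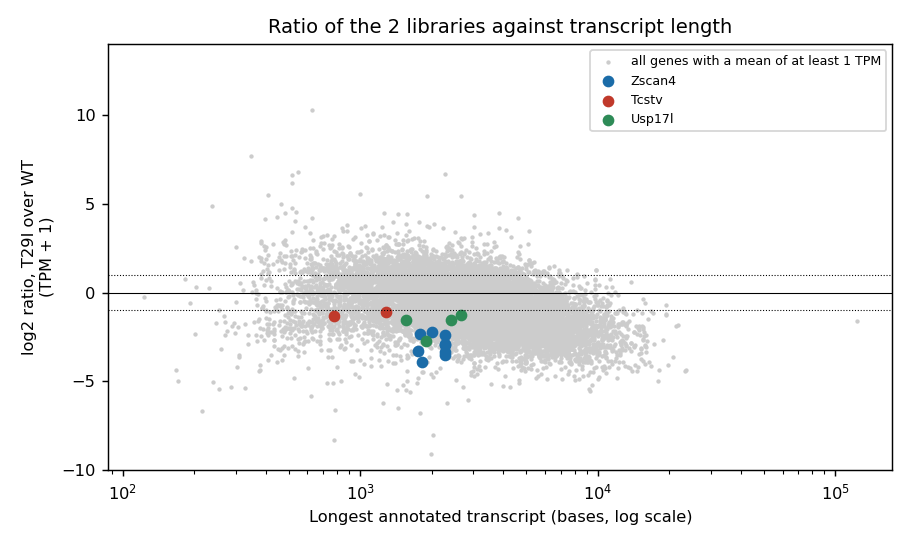
The log2 ratio of T29I over WT on the log2(TPM + 1) scale against the length of the longest annotated transcript (log axis), for all genes that averaged 1 TPM or more (grey) and the 15 members among them (coloured by family); dotted lines mark 2-fold differences. The members sit at -1.08 to -3.90, and the 9 Zscan4 genes at -2.19 to -3.90.

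The Zscan4 genes lie in 1 cluster on chromosome 7, from 10794242 to 11614112 on the GRCm38 build in the GENCODE M21 annotation. They are Zscan4a, Zscan4b, Zscan4c, Zscan4d, Zscan4e and Zscan4f and the copies named as pseudogenes, Zscan4-ps1, Zscan4-ps2 and Zscan4-ps3. GENCODE M21 annotates Zscan4a as an unprocessed pseudogene and the 3 copies with ps in their names as protein-coding, while RefSeq lists all 4, and Zscan4e, as pseudogenes. Their longest transcripts match each other at 96.6% to 99.8% of aligned bases over the 36 pairs. The closest pair was Zscan4-ps2 and Zscan4f. So close a likeness leaves little sequence by which a read can be placed on a single copy.

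RefSeq promoter sequences on the GRCm38.p6 build were found for 4 Zscan4 genes, 4 Usp17l genes and 3 Tdpoz genes. Those of Zscan4 are shown because the copies are as alike there as in their transcripts, with 95.3% to 99.3% identity over the 6 pairs. That identity is over 266 to 300 aligned bases of the full promoter sequences, which are longer than the windows shown. Each line gives the 200 bases before the annotated start, 5′ to 3′ on the gene's strand, with capitals for TATAAA and for TGATTNAA or its reverse complement. The second motif was chosen after the sequences were seen.
Zscan4b: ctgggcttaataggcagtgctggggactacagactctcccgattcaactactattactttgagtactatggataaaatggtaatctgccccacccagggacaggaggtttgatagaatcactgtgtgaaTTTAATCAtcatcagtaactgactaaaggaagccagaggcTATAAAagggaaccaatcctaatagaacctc
Zscan4c: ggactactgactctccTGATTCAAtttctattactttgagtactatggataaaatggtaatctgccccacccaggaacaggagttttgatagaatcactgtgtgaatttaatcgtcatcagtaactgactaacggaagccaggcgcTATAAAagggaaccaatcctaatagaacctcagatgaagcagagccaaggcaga
Zscan4d: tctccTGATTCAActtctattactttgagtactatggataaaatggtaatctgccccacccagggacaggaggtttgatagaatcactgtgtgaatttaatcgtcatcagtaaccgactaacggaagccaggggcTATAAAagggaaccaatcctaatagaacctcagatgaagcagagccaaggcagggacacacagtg
Zscan4f: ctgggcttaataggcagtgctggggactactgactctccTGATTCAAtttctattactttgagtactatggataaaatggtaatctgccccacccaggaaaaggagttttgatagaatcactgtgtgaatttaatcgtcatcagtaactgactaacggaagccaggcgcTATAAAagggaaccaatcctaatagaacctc
The windows are chr7:10905051-10905250 (- strand) for Zscan4b, chr7:11005545-11005744 (+ strand) for Zscan4c, chr7:11166149-11166348 (- strand) for Zscan4d and chr7:11397715-11397914 (+ strand) for Zscan4f. TATAAA stands in all 4, at 31 bases before the annotated start in Zscan4b and Zscan4f, 54 in Zscan4c and 65 in Zscan4d, so the annotated starts of the copies are not at the same base of the shared sequence. In the 250 bases before the start, searched on both strands, TATAAA was in 12.4% of 32851 RefSeq promoters and TGATTNAA in 2.60%. All 4 Zscan4 promoters hold TGATTNAA: Zscan4c, Zscan4d and Zscan4f on the gene's strand, and Zscan4b only as the reverse complement TTTAATCA. A match is a description of the letters, not evidence of binding.

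Zscan4f was the most abundant member in the WT library and Zscan4-ps2 in the T29I library. Zscan4f, 1 of the 3 copies known to encode the full-length protein, was at 0.541 TPM from 7 reads in the T29I library (interval 0.217 to 1.11 TPM) and at 22.03 TPM from 224 reads in the WT library (19.2 to 25.1). It was 40.7-fold higher in WT (19.4 to 102). Zscan4-ps2 was at 1.13 TPM from 17 reads in the T29I library and 15.4 TPM from 182 reads in the WT library, 13.6-fold higher in WT (8.28 to 23.9). The counting intervals of the 2 folds overlap.

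The other full-length copies, Zscan4c and Zscan4d, were listed at 0 in the T29I library. In the WT library Zscan4c was at 10.3 TPM from 122 reads and Zscan4d at 9.24 TPM from 109 reads. Zscan4-ps3 was likewise listed at 0 in the T29I library and at 6.43 TPM from 76 reads in the WT library. Taken as 3 reads, the limit that a count of 0 allows was 0.200 TPM for each of Zscan4c and Zscan4d and 0.199 TPM for Zscan4-ps3. The exact Poisson intervals reached 0.245 TPM for Zscan4c, 0.246 TPM for Zscan4d and 0.245 TPM for Zscan4-ps3. No fold is given for these 3, because a listed 0 can also arise where reads are not assigned to a copy.

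Of the remaining Zscan4 copies, Zscan4e had 0.169 TPM from 2 reads in the T29I library and 10.3 TPM from 96 reads in the WT library. Zscan4a was at 0.731 TPM from 11 reads in the T29I library and 8.199 TPM from 97 reads in the WT library, and was 11.2-fold higher in WT (6.002 to 23.2). Zscan4b was at 0.420 TPM from 5 reads in the T29I library and 6.2004 TPM from 58 reads in the WT library. Zscan4-ps1, the least abundant copy in the WT library, was at 0.0751 TPM from 1 read in the T29I library and 3.92 TPM from 41 reads in the WT library. After the length and GC adjustment the log2 ratios of the 9 copies ran from -2.92 for Zscan4f to -1.06 for Zscan4-ps1.

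The largest share of the Zscan4 reads went to Zscan4-ps2 in the T29I library and to Zscan4f in the WT library. Zscan4c, Zscan4d and Zscan4-ps3, grouped after their values were seen, held 0 of 43 reads in the T29I library, which allows a share of up to 6.98% as 3 reads of the total and of up to 8.22% by the exact two-sided interval, against 307 of 1005 reads in the WT library, or 30.5% (exact Clopper-Pearson interval 27.7% to 33.5%). Zscan4a and Zscan4-ps2 held 28 of the 43 reads in the T29I library, or 65.1% (49.1% to 79.0%), and 27.8% in the WT library (25.01% to 30.6%). Zscan4c, Zscan4d and Zscan4f, the full-length copies, held 16.3% of the reads in the T29I library (6.81% to 30.7%) and 45.3% in the WT library (42.2% to 48.4%). All 3 groupings were made after the values were seen, so their intervals describe counting error and test nothing. The sources used here do not say how reads that fit several copies were assigned.

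**Figure D3:**
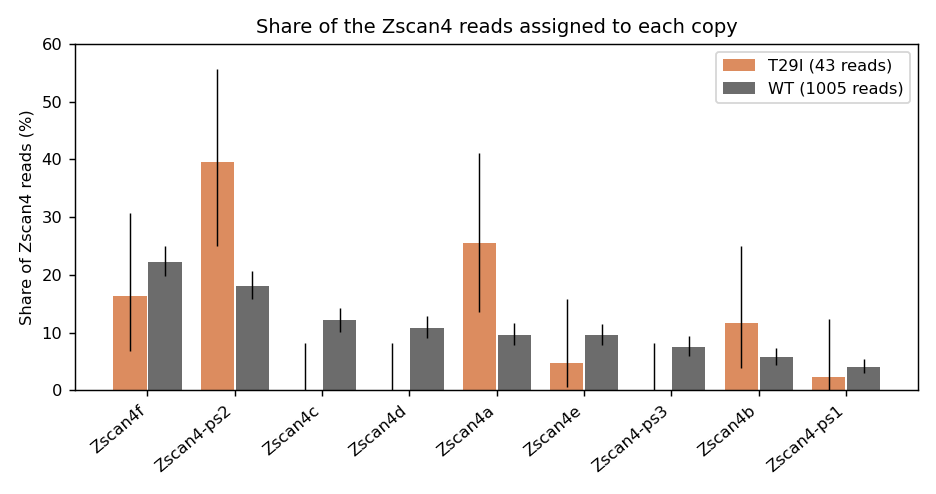
Share of the reads assigned to Zscan4 genes that each copy received, in the T29I library (43 reads, left bar) and the WT library (1005 reads, right bar); error bars are 95% exact Clopper-Pearson intervals. Zscan4-ps2 and Zscan4a take 39.5% and 25.6% of the T29I reads, while Zscan4c, Zscan4d and Zscan4-ps3 have no T29I bar.

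The sequence unique to each copy was measured as the share of its 100-base transcript stretches found in no other GENCODE M21 gene. It was lowest for Zscan4e at 18.5% and Zscan4f at 19.4%, followed by Zscan4b at 23.7%, Zscan4-ps2 at 25.4% and Zscan4c at 27.2%. It was 47.8% for Zscan4-ps3, 60.9% for Zscan4a, 70.4% for Zscan4d and highest for Zscan4-ps1 at 76.6%. The 2 copies with most reads in the WT library, Zscan4f and Zscan4-ps2, were therefore among those with little sequence of their own. Where in a transcript the reads lie cannot be read from a table of TPM values. Outside the family no more than 3.37% of any Zscan4 gene's stretches were found in another gene, and that gene was Gm45551. The family's total of reads does not depend on how they were split among the listed copies. With stretches of 50 bases the unshared share was between 9.88% for Zscan4b and 51.6% for Zscan4-ps1.

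**Figure D4:**
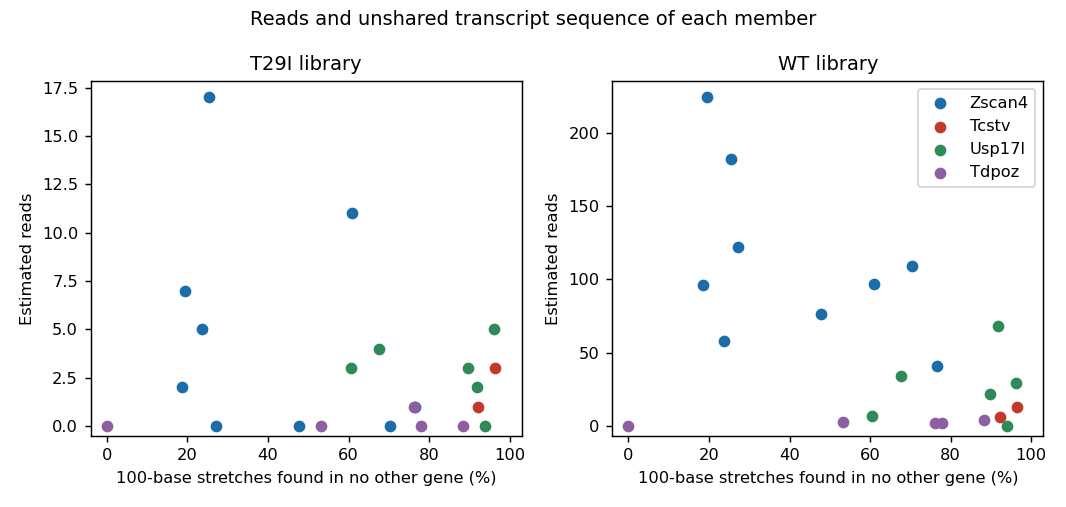
Estimated reads of each member in the T29I library (left) and the WT library (right) against the share of its 100-base transcript stretches that no other annotated gene holds; colours mark the families and the 2 read axes differ. Zscan4f, with 19.4% unshared, has 224 reads in the WT library, and Tdpoz5, with 0% unshared, has 0 in both.

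The Usp17l genes encode deubiquitinating enzymes of the DUB family, first known as genes that cytokines induce in blood cells. They lie on chromosome 7 from 103249737 to 104862667, in a stretch with many olfactory receptor genes, and their transcripts are 89.2% to 97.9% identical over 15 pairs. The promoters of 4 of them are shown as 120 bases before the RefSeq start with TATAAA in capitals. Their full promoter sequences, longer than these windows, are 91.7% to 96.8% identical over 6 pairs, with 215 to 278 bases aligned. The 250 bases before each start hold no TGATTNAA.
Usp17la: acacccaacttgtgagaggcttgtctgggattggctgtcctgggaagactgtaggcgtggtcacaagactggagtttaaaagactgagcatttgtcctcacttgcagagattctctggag
Usp17lb: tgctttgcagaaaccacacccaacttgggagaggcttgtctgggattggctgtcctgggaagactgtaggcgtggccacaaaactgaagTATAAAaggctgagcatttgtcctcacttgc
Usp17lc: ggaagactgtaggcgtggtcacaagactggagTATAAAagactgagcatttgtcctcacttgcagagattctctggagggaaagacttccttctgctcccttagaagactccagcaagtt
Usp17ld: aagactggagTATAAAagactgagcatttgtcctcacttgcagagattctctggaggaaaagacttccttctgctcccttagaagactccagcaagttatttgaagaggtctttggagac
The windows are chr7:104856896-104857015 (+ strand), chr7:104842584-104842703 (- strand), chr7:103416576-103416695 (+ strand) and chr7:103252506-103252625 (- strand) in the order shown. The Usp17la window lacks TATAAA, and the distance of TATAAA from the annotated start ran from 31 bases in Usp17lb to 110 in Usp17ld.

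Usp17le was the most abundant of this family in the WT library and the lowest of its detected members in the T29I library. It was at 0.152 TPM from 2 reads in the T29I library, against 6.59 TPM from 68 reads in the WT library, 43.3-fold higher in WT (11.5 to 365). Usp17lc was at 0.247 TPM from 4 reads in the T29I library and 2.67 TPM from 34 reads in the WT library. Usp17lb was at 0.291 TPM from 3 reads in the T29I library and 2.71 TPM from 22 reads in the WT library. Usp17la was at 0.285 TPM from 5 reads in the T29I library, against 2.10 TPM from 29 reads in the WT library, 7.38-fold higher in WT (2.83 to 24.4). These 4 had higher levels in WT beyond their counting error.

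Usp17ld was the exception, at 0.229 TPM from 3 reads in the T29I library and 0.679 TPM from 7 reads in the WT library. Its interval, from 0.678-fold to 17.8-fold higher in WT, includes equality. The pseudogene Usp17le-ps was at 0 in both libraries, although 93.9% of its 100-base stretches are found in no other gene. In shares, Usp17le took 11.8% of the family's 17 reads in the T29I library (1.46% to 36.4%) and 42.5% of its 160 reads in the WT library (34.7% to 50.6%), and these intervals overlap. The Usp17l copies share less sequence than the Zscan4 copies, with 60.5% of the stretches of Usp17ld and 96.2% of those of Usp17la unshared. After the length and GC adjustment Usp17le stood at -2.37, Usp17lb at -1.15, Usp17lc at -0.82, Usp17la at -0.32 and Usp17ld at 0.03.

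The Tcstv genes were named for a variable group of transcripts of the 2-cell stage, and in mouse ES cells Tcstv1 and Tcstv3 are known for helping to lengthen telomeres. Tcstv1 lies on chromosome 13 at 119893388 to 119894785 and Tcstv3 at 120316878 to 120318178. Tcstv1 was at 0.325 TPM from 3 reads in the T29I library and 1.79 TPM from 13 reads in the WT library, 5.51-fold higher in WT (1.52 to 30.2). Tcstv3 was at 0.297 TPM from 1 read in the T29I library and 2.27 TPM from 6 reads in the WT library, and its interval of 0.926-fold to 351-fold includes equality. The whole reads of Tcstv3 came out only with a length of 510 bases, that of 1 of its 2 transcripts, in place of its 779 exonic bases. The transcripts of Tcstv1 and Tcstv3 are 87.0% identical, and 96.4% and 92.2% of the 100-base stretches of Tcstv1 and Tcstv3 were unshared.

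The region from Tcstv1 to Tcstv3 holds 14 other listed genes, of which 2 reached 1 TPM in the T29I library and 6 in the WT library. Gm21761 was at 0.441 TPM in the T29I library and 5.47 TPM in the WT library, and Gm20767 at 0.890 and 6.04 TPM in the same order. AF067061 was at 0.323 TPM in the T29I library against 1.92 TPM in the WT library. B020031M17Rik, in contrast, was at 2.29 TPM in the T29I library (interval 1.25 to 3.84) and 2.08 TPM in the WT library (0.999 to 3.83), with no difference detectable at this depth.

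The Tdpoz genes encode proteins with TRAF and POZ domains, relatives of the ubiquitin ligase adaptor Spop, and were at the limit of detection in both libraries. Tdpoz1 had 0.0643 TPM from 1 read in the T29I library and 0.164 TPM from 2 reads in the WT library. Tdpoz2, Tdpoz3 and Tdpoz4 were listed at 0 in the T29I library and had 2, 3 and 4 reads in the WT library, or 0.336, 0.526 and 0.692 TPM. Tdpoz5 was listed at 0 in both, and none of its 100-base stretches is found in Tdpoz5 alone. No member of the family passed the filter, and no single Tdpoz gene differed beyond counting error. Of the related copies outside the name rule, Gm4858, which RefSeq calls Tdpoz8, was listed at 0 in the T29I library and had 16 reads, or 1.44 TPM, in the WT library.

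Other genes of the 2-cell-like state were mostly lower in the T29I library too, but by a smaller margin after the adjustment for length and GC content. Of 52 listed genes 33 passed the filter, and 25 were called lower and 1 higher, against 45.7% and 9.97% of all genes. Their median log2 ratio was -1.88. However, 17 of the 33 passed through the WT library alone and could hardly have been called higher, so the count carries no support. After the adjustment 9 of the 33 were lower and 3 higher, with a median of -0.49, against 15.5% and 17.6% of all genes. Duxf3, the Dux gene itself, was listed at 0 in the T29I library and had 11 reads, or 0.786 TPM, in the WT library. Zfp352, a zinc finger gene of the state, was at 0.0665 TPM from 1 read in the T29I library and 0.592 TPM from 7 reads in the WT library.

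The lowest adjusted ratio in that list belonged to a gene without a given name. Gm4340 was listed at 0 in the T29I library and at 9.61 TPM in the WT library, with an adjusted log2 ratio of -2.86. Gm21312 and Gm6763, also on chromosome 10, were both at 0.469 TPM in the T29I library, and at 6.12 and 4.77 TPM in the WT library. Both have a longest transcript of 1246 bases with 47.4% GC. How far the genes of this list share reads was not measured. The 10 listed genes on chromosome 12 summed to 7.07 TPM in the T29I library and 58.1 TPM in the WT library, led by Gm5662 at 1.15 and 13.2 TPM in the same order. All 10 were called lower, but only Gm5662 after the adjustment. Cyp2b23, a cytochrome P450 gene, was at 0.277 TPM in the T29I library and 8.54 TPM in the WT library.

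The list also holds genes that were not called lower and genes with wide expression. The Prame-like gene Pramef12 was at 18.3 TPM in the T29I library and 27.8 TPM in the WT library. Ddit4l, a regulator of mTOR signalling, was at 7.06 TPM in the T29I library (5.92 to 8.35) and 6.21 TPM in the WT library (5.02 to 7.60), with overlapping intervals. Phlda2, the 1 gene called higher, was at 328 TPM in the T29I library and 93.1 TPM in the WT library; it is an imprinted gene of placental growth and, like Eif1a, Kdm5b, Gata2 and Mael in this list, is expressed well beyond the 2-cell-like state. Kdm5b, a histone H3K4 demethylase, was at 35.3 TPM in the T29I library and 164 TPM in the WT library, but its adjusted log2 ratio was 0.23. Eif1a, a translation initiation factor, was at 65.9 and 296 TPM in the same order.

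Most known regulators of the state were well above 1 TPM in both libraries. In the T29I library Tet2 was at 0.489 TPM and Tet3 at 0.303 TPM. Both repressors and activators were among those lower in the T29I library. Of 46 listed regulators 45 passed the filter, and 34 were called lower and 0 higher, with a median log2 ratio of -1.66, against 45.7% of all genes lower and 9.97% higher. Relative to the median shift 21 were lower and 4 higher, against 22.2% and 26.0% of all genes. After the adjustment 9 of the 45, or 20%, were lower and 3 higher, with a median of -0.45, against 15.5% and 17.6% of all genes, so the share called lower was near that of the whole table.

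Of the activators, Dppa2 and Dppa4 act upstream of Dux. Dppa4 was at 89.1 TPM in the T29I library and 285 TPM in the WT library, with an adjusted log2 ratio of -1.22. Dppa2 was at 116 TPM in the T29I library and 269 TPM in the WT library, with an adjusted log2 ratio of -0.01. Nelfa, a subunit of the negative elongation factor, was at 54.1 TPM in the T29I library (51.3 to 57.01) and 58.4 TPM in the WT library (55.1 to 61.8).

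Among the repressors, those of chromatin assembly and H3K9 methylation went in both directions. Chaf1a, a subunit of the CAF-1 histone chaperone, was at 59.7 TPM in the T29I library and 125 TPM in the WT library, and its partner Chaf1b at 65.0 and 51.4 TPM in the same order. Setdb1, an H3K9 methyltransferase, was at 14.5 TPM in the T29I library and 95.4 TPM in the WT library, while its corepressor Trim28 was at 1542 and 1781 TPM. The adjusted log2 ratios were 0.81 for Chaf1a, 1.17 for Chaf1b, -0.92 for Setdb1 and -0.39 for Trim28. Ehmt2, an H3K9 dimethyltransferase, was at 113 TPM in the T29I library and 84.5 TPM in the WT library, and Ehmt1 at 5.32 and 36.7 TPM.

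In the whole list of regulators Tet2, an enzyme that oxidises methylated cytosine, had the lowest adjusted log2 ratio, at -2.78, with 0.489 TPM in the T29I library and 62.1 TPM in the WT library. The adjusted ratios of Tet1 and Tet3 were -0.59 and 1.44. Zfp809, a zinc finger protein that recruits Trim28 to retroviral sequence, was at 2.61 TPM in the T29I library and 30.7 TPM in the WT library, with an adjusted log2 ratio of -2.24. The cohesin subunit Smc1a was at 7.22 TPM in the T29I library and 121 TPM in the WT library (adjusted -2.32), and Ctcf, the insulator protein, at 17.5 and 129 TPM (adjusted -1.45). The adjusted ratio of Rad21, another cohesin subunit, was -0.40. Of the polycomb complex PRC1.6, Max was at 24.8 TPM in the T29I library and 104 TPM in the WT library (adjusted -1.51), and Mga at 2.61 and 76.2 TPM (adjusted -0.95). The other listed members of that complex had adjusted ratios of -0.03 for Rnf2, -0.04 for Pcgf6 and 0.21 for L3mbtl2. No relation between the lists was tested.

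**Figure D5:**
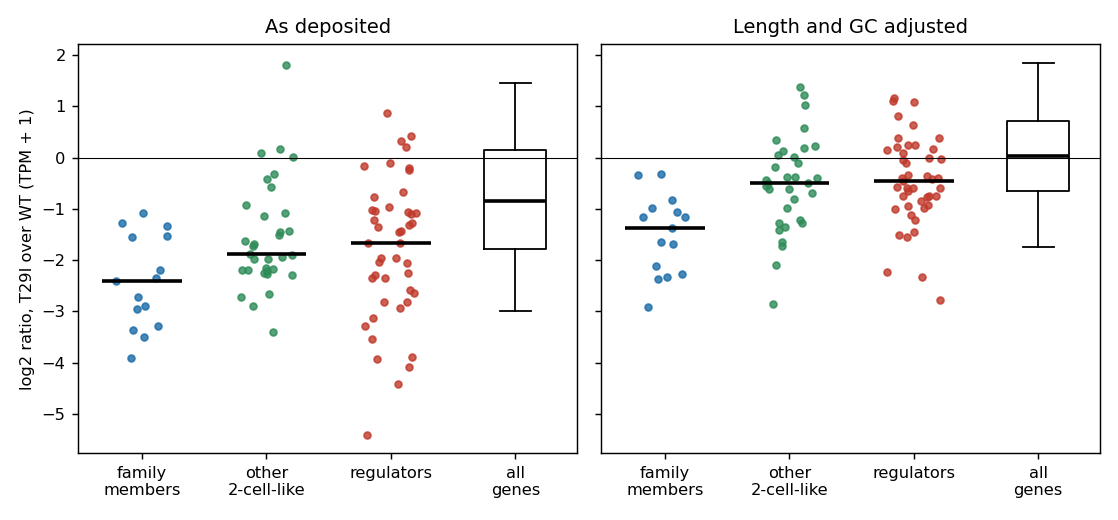
The log2 ratio of T29I over WT, as deposited (left) and after the length and GC adjustment (right), for the 15 family members, the 33 other 2-cell-like genes and the 45 regulators that averaged 1 TPM or more; points are genes, thick lines are medians, and the box for all genes spans the middle 50% with whiskers from 5% to 95%. The medians as deposited are -2.41, -1.88, -1.66 and -0.84, and adjusted they are -1.36, -0.49, -0.45 and 0.04.

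As a check of the cell type, all 9 ES cell markers examined, Pou5f1, Sox2 and Nanog among them, were at or above 23.3 TPM in the T29I library and 197 TPM in the WT library, and summed to 7565 and 11065 TPM. Of 8 fibroblast markers, which feeder cells would add, 2 reached 1 TPM in the T29I library and 1 in the WT library, and Lum was at 0 in both. Of 7 trophoblast markers 5 reached 1 TPM in the T29I library and 1 in the WT library, with sums of 154 and 75.4 TPM, and Plac1 was at 0 in the WT library. Of 5 extra-embryonic endoderm markers 0 reached 1 TPM in the T29I library and 1 in the WT library, with sums of 1.39 and 7.52 TPM. Of 5 oocyte and early embryo markers only 1 reached 1 TPM in each library, with sums of 61.2 TPM in the T29I library, 60.6 of it from Zp3, and 17.5 TPM in the WT library, and Bmp15, Oosp1 and Zar1 were at 0 in the T29I library. The 4 germ cell markers summed to 41.0 and 50.8 TPM. What part these differences have in the levels of the families was not tested. Prss1 was listed at 0 in both libraries, so its level is no check of the labels.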

How the data were processed

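The authors deposited 1 table of TPM values with a gene symbol and an Ensembl identifier for 51826 genes in 2 libraries. Isogen was used for the extraction and a stranded TruSeq kit with Ribo-Zero depletion of ribosomal RNA for the libraries, per the labels' protocols. The aligner, the counting, the genome build and the treatment of multiply mapping reads: not given in the sources used here. Columns were assigned to libraries by the sample descriptions and groups by the genotype labels.

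Identifiers were matched to GENCODE M21 (51633 matched, 193 did not, all 22 members did). The commonest product of TPM and merged exon length was taken as the value of 1 read, and 77.7% of T29I and 80.2% of WT values above 0 came out whole within 0.05. The log2 ratio used a pseudocount of 1 and a filter on a mean of 1 TPM. The adjustment subtracts a quadratic surface in log2 transcript length and GC content, fitted to protein-coding genes that averaged 5 TPM or more, and it accounted for 44.9% of their variance. The pseudocount compresses the ratios of low genes, so the adjustment can overcorrect them. The fit and the read estimate were tested on simulated data. No test across libraries was made, because 1 library a group leaves no spread. Intervals are at 95%. Sequences were compared by global alignment with Biopython 1.88, and sums and intervals were computed with pandas 2.3.3 and scipy 1.17.1.

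The members and gene lists were chosen with earlier results of these data known. Named genes are members, other genes of the state and regulators with at least 1 TPM in either library. Genes below that, such as Duxf3, Zfp352, Usp17ld and the Tdpoz genes, neighbours in the clusters, and the background of 70 genes in the Zscan4 length and GC range were added after their values were seen.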

Additional observations from a re-analysis of the deposited data

How the results depend on the processing

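No paired analysis was possible because each group has 1 library, and no replicate could be left out. With at least 1 TPM in place of above 0, 1 member was detected in the T29I library and 15 in the WT library. With a mean of at least 5 TPM, 4 of 4 members and 7 of 11 other 2-cell-like genes were at least 2-fold lower. In the same order 0 and 1 were higher, against 47.1% of all genes lower and 9.63% higher. The 4 members reached that mean through the WT library alone, so their count carries no support. Fewer genes were tested at that floor, and among the other 2-cell-like genes the share called lower fell too, from 75.8% to 63.6%. Their share called higher rose from 3.03% to 9.09%, and their median log2 ratio went from -1.88 to -1.51. Relative to the median shift the lower genes numbered 16 of 33 in the other 2-cell-like list (2 were higher) and 21 of 45 regulators (4 were higher), against 22.2% of all genes lower and 26.0% higher. The log2 ratio of the summed TPM relative to that shift was -3.62 for Zscan4 and -1.94 for Usp17l, against -4.52 and -2.84 as deposited. For Tcstv it was -0.75 and for Tdpoz -0.46, against -1.64 and -1.35 as deposited, so neither was then 2-fold lower. Tdpoz could not have been, because with a pseudocount of 1 a WT sum of 1.72 TPM is too low for it even at 0 in the T29I library. With no pseudocount, and without the shift taken off, the ratios were -2.71 for Tcstv and -4.74 for Tdpoz. With the length and GC adjustment 9 other 2-cell-like genes and 9 regulators were at least 2-fold lower (3 higher in each list), against 15.5% of all genes lower and 17.6% higher. That adjustment turned the direction of 10 named genes that were at least 2-fold lower as deposited, to 0.64 for Atrx, 0.81 for Chaf1a, 0.0115 for Gm2035, 0.0509 for Gm5039, 0.17 for Hdac2, 0.23 for Kdm5b, 0.16 for Tardbp, 1.44 for Tet3, 0.38 for Ythdc1 and 0.0878 for Zmym2; differences that truly track those properties are subtracted with it. It also turned Hdac3, L3mbtl2, Nelfa, Mael, Pramef12 and Usp26, which lay between -0.68 and -0.11 as deposited, to between 0.19 and 1.37. Relative to the shift Hdac3, L3mbtl2, Nelfa, Mael, Pramef12, Usp26, Daxx, Smarcd1 and Trim28, none of them 2-fold lower as deposited, turned to between 0.13 and 0.79. Leaving out the copies named as pseudogenes, an alternative chosen after seeing the data, gave -4.56 for Zscan4. Only 43 Zscan4, 17 Usp17l, 4 Tcstv and 1 Tdpoz reads stand behind the T29I values.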

Other observations

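The Zscan4 and Usp17l clusters differ in what else they hold. Between the first and last Zscan4 genes, 819.9 kb apart, lie 44 other listed genes, of which 0 reached 1 TPM in the T29I library and 1 in the WT library. That gene, the unprocessed pseudogene Gm45551, was at 0.489 TPM from 3 reads in the T29I library and 2.91 TPM from 14 reads in the WT library, and it shares sequence with the Zscan4 transcripts. The Usp17l span holds 117 other listed genes, of which 6 reached 1 TPM in the T29I library and 4 in the WT library. Among them Trim6, a ubiquitin ligase gene known for its part in keeping ES cells pluripotent, was at 10.1 TPM in the T29I library and 121 TPM in the WT library, with an adjusted log2 ratio of -1.96. Hbb-bs, an adult beta-globin gene in the same span, was at 1245 TPM in the T29I library and listed at 0 in the WT library. Its part in the other differences was not tested. Both genes were picked after their values were seen.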
